A study of Mus musculus with 9 samples.

Results

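The subunits of respiratory complexes II, III, IV and V were examined in mouse liver as 47 genes of the 18193 that could be measured. They were taken by symbol from the array annotation: Sdha to Sdhd for complex II, Cyc1 and the symbols starting with Uqcr for complex III, the symbols starting with Cox4 to Cox8 for complex IV, and the symbols starting with Atp5 for complex V. This gave 4, 9, 17 and 17 genes, with 92 probe sets in all. The livers came from male mice of 14 weeks kept on regular chow. The 5 controls, BKS, were C57BL/KSlepr+/+, and the 4 db/db mice, BKS.Cg-Leprdb, were their littermates with the mutated leptin receptor gene, a state in which the mice are obese and diabetic with a fatty liver. Every cell of the animal carries the allele, so liver is not the only tissue that differs. Each sample was hybridised to its own Affymetrix array. The labels number the samples but do not tie each to a mouse of its own, so the p-values below reflect only how far these arrays scatter, which may in part be technical.

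Complex II (succinate dehydrogenase) and complex III (the cytochrome bc1 complex) pass electrons from succinate and ubiquinol to cytochrome c, and complex IV (cytochrome c oxidase) passes them on to oxygen. Complex V (ATP synthase) uses the proton gradient that complexes I, III and IV build up. Protons flow through its membrane part, Fo, and this flow drives the catalytic head, F1, which makes ATP. Liver mitochondria use the chain to burn fatty acids, and several complex IV subunits exist as a general form and as a form known from muscle, lung or testis. The subunits encoded by mitochondrial DNA were not analysed here.

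Before the results on single genes, the arrays themselves differed in 1 property that the labels do not explain. The control probe sets for 18S ribosomal RNA gave a mean intensity of 1114 to 9835 on 4 arrays (db/db 3, db/db 4, BKS 4 and BKS 5) and of 13.9 to 26.8 on the other 5, so each set holds both genotypes. Differences are therefore also given within each set and, where it matters, from the fit with the set as a block. Levels are on the log2(signal + 16) scale after quantile normalization, and each gene is represented by its brightest probe set. The samples carried the RNA of liver: Alb, the main plasma protein of hepatocytes, stood at 15.47 in BKS and 15.50 in db/db. None of 5 measured hepatocyte markers passed the test, but 2 had an unadjusted p under 0.05. These were Hnf4a (-0.35) and Apoa1 (-0.38), both lower in db/db, while Alb, Cps1 and Ttr differed by 0.02 to 0.03. The summed hepatocyte signal was 196432 to 206155 in BKS and 177670 to 192805 in db/db. Its part in the differences of the subunits was not tested. In whole tissue, fewer cells of a type and less RNA per cell cannot be told apart.

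Few of these subunits differed between the genotypes, and those that passed the test were both higher in db/db liver. With limma and Benjamini-Hochberg adjustment over all 18193 genes, 2 of the 47 subunits rose and 0 fell, which is 4.26%, at a threshold of 0.05. Over all genes 5.49% were called, 2.89% as higher and 2.6% as lower, which is close to the share of called subunits. These subunits are mostly bright, though, and bright genes were called more often: of the genes at or above the median gene by mean level 10.1% were called and 15.7% had groups without overlap, against 2 of the 41 subunits at that level (4.88%) for both. At an unadjusted p under 0.05 there were 7 subunits, or 14.9%, all 7 of them higher in db/db, against 17.6% of all genes in either direction. Of those 3208 genes 1594 were higher in db/db. Groups did not overlap for 2 of the 47, against 9.15% of all genes. The 2 that rose were Sdhb, the iron-sulfur subunit of complex II, and Uqcrfs1, the Rieske iron-sulfur protein of complex III.

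The subunits as a whole lay close to no change. Their log2 differences, db/db minus BKS, ran from -0.54 for Cox7a1 to 0.74 for Cox8a, with a median of 0.06, and the middle of the list ran from -0.05 to 0.21 (quartiles). Over all genes the median was -0.00, with quartiles of -0.29 and 0.28. Of the 47 subunits 29 were higher and 18 lower in db/db. For 32 of the 47 the 95% confidence interval of the difference, on the brightest probe set, lay within a 1.5-fold change in either direction. The 15 whose intervals on that probe set reached further were Sdhb, Sdhd, Uqcrfs1, Cox5a, Cox7c, Cox8a, Atp5a1, Atp5g1, Atp5g2 and the 6 complex IV isoforms Cox4i2, Cox6b2, Cox7a1, Cox7b2, Cox8b and Cox8c. The 32 are not bounded on every probe set. In the fit over all probe sets, a second one of Atp5d had a log2 interval from 0.26 to 0.85. Those of Atp5h, Cox7a2l and Sdhc ran from 0.24 to 0.68, from -0.81 to -0.28 and from 0.10 to 0.99. The median was 0.09 on the arrays with low 18S signal and -0.00 on those with high 18S signal.

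The counts are given by complex, and differences between complexes were not tested. All 4 subunits of complex II were higher in db/db, with a median difference of 0.21. In complex III 8 of 9 were higher, with a median of 0.12. Complex IV had 5 of 17 higher and a median of -0.06. The median of complex IV was 0.03 on the low 18S arrays and -0.08 on the high 18S arrays, so its sign differed between the sets. In complex V 12 of 17 were higher, with a median of 0.06, which was 0.08 on the low and -0.08 on the high 18S arrays, and 8 of the 17 kept 1 sign in both. By part of complex V, all 5 of the F1 head were higher (median 0.12), and 7 of the 12 of Fo and the stalk (median 0.01).

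**Figure D1:**
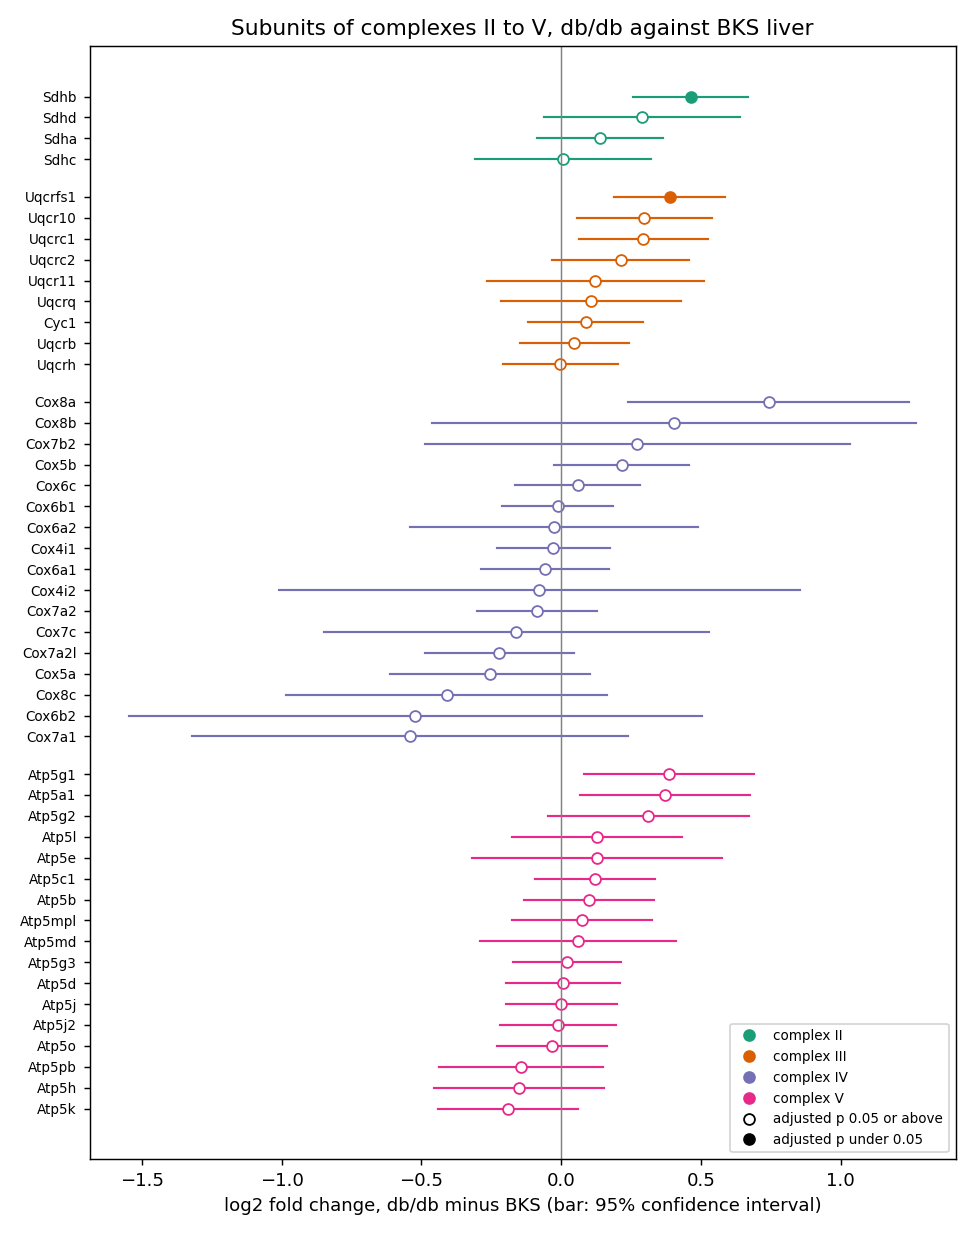
Log2 difference between db/db and BKS liver for each of the 47 subunits, with the 95% confidence interval, grouped by complex. Sdhb and Uqcrfs1 passed the test, at 0.46 and 0.39. Most other intervals cross 0, and the widest belong to dim complex IV isoforms such as Cox6b2 and Cox4i2.

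Complex II holds 4 subunits: the flavoprotein Sdha and the iron-sulfur protein Sdhb form the catalytic part, and Sdhc and Sdhd anchor it in the inner membrane. Sdhb had log2 levels of 14.14, 14.09, 13.95, 14.06 and 14.08 on the 5 BKS arrays. On the 4 db/db arrays it had 14.64, 14.57, 14.54 and 14.36, so every db/db array lay above every BKS array. The level rose from 14.06 ± 0.07 (SD, n = 5) to 14.53 ± 0.12 (SD, n = 4), a log2 difference of 0.46 (SE 0.10), or 1.38-fold, with a limma adjusted p of 0.0120. Within the sets of low and high 18S signal the difference was 0.54 and 0.38, and with the set as a block, where 8.23% of all genes were called, the adjusted p was 0.00653. The call depends on the scaling and the variance model: the adjusted p was 0.478 with median centring, 0.287 with no normalization and 0.121 without the intensity trend.

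The other subunits of complex II did not pass the test. Sdhd, a membrane anchor, had 13.30, 12.85, 13.04, 12.69 and 12.72 in BKS and 13.45, 13.49, 13.08 and 12.83 in db/db, so the groups overlapped; the log2 difference of 0.29 had an adjusted p of 0.398. Sdha, which binds succinate, differed by 0.14 and Sdhc by 0.01. A second, dimmer probe set of Sdhc differed by 0.54, with overlapping groups and an interval from 0.10 to 0.99. It did not pass in the limma fit over all probe sets (adjusted p 0.242). Whether Sdhb differs from its partners was not tested.

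In complex III, Uqcrfs1 carries the Rieske iron-sulfur centre that hands electrons to Cyc1, cytochrome c1. Its log2 levels were 13.50, 13.46, 13.47, 13.34 and 13.38 in BKS. In db/db they were 13.83, 13.92, 13.80 and 13.72, all above the highest BKS array. The rise, from 13.43 ± 0.07 (SD, n = 5) to 13.82 ± 0.08 (SD, n = 4), was 0.39 on the log2 scale (SE 0.09), or 1.31-fold, with a limma adjusted p of 0.0254. It measured 0.40 in both 18S sets, with an adjusted p of 0.00858 in the block fit. This call is less stable than that of Sdhb: leaving out BKS 3, BKS 4, BKS 5, db/db 1, db/db 2 or db/db 3 took the adjusted p past the threshold (up to 0.0688), as did analyses with median centring (0.369), no normalization (0.143) and no trend (0.182).

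Uqcrc1, a core protein of complex III, followed with levels of 13.30, 13.21, 13.09, 13.34 and 13.47 in BKS and 13.46, 13.55, 13.75 and 13.54 in db/db. Only BKS 5 reached into the db/db range, and the difference of 0.29 had an adjusted p of 0.155. Uqcr10, a small subunit, had a difference of 0.30 (adjusted p 0.170). The remaining members, the core protein Uqcrc2, cytochrome c1, and the small subunits Uqcrb, Uqcrq, Uqcrh and Uqcr11, lay between -0.00 and 0.21 and did not pass. Uqcrb was among the brightest genes of the arrays, with 15.40 to 15.58 on all 9 arrays.

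The promoters of the subunits that the results turn on are printed here, since nuclear genes of the respiratory chain are known for sharing binding sites of NRF-1 and of the ETS family factor GABP. The sequences are from RefSeq (GRCm38.p6), 150 bases before to 20 bases after the start of the gene, 5' to 3' on the gene's strand, with matches to the searched cores in capitals. Sdhb lies on the plus strand at chr4:140961121-140961290, Uqcrfs1 on the minus strand at chr13:30545297-30545466, Cox8a on the minus strand at chr19:7217597-7217766 and Atp5h on the minus strand at chr11:115419900-115420069. Cox8a has the largest difference of all 47, and a probe set of Atp5h, described further on, passed the test.
Sdhb: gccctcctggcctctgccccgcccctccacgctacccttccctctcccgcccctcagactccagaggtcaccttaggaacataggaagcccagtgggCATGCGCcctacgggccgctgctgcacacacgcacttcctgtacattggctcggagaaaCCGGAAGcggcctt
Uqcrfs1: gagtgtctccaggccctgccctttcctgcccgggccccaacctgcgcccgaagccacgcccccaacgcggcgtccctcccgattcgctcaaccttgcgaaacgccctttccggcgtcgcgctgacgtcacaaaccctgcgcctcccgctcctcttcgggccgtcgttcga
Cox8a: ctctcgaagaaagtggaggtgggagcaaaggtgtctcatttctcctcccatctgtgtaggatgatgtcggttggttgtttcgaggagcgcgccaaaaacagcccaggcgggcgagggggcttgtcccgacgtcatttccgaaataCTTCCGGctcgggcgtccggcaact
Atp5h: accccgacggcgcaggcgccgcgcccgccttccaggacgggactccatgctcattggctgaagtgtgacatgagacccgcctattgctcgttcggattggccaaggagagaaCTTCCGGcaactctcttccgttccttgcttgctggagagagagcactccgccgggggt
In Sdhb the NRF-1 core starts 53 bases before the gene's start (CATGCGC, the reverse complement of GCGCATG) and an ETS core, CCGGAAG, at base 7 after it. Cox8a and Atp5h hold the reverse complement of the ETS core, CTTCCGG, 5 and 38 bases before the start. In Cox8a it occurs again at base 33 after the start, beyond the printed stretch. Uqcrfs1 has no match to any of the searched cores in its window.

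Across the subunits, 35 of 47 had an entry in the RefSeq promoter table. The window searched ran from 250 bases before to 50 after the start, on both strands, and the cores do not contain each other. The NRF-1 core GCGCATG was in 8 of 35 promoters (22.9%), against 6.3% of the promoters of all tested genes. The ETS core CCGGAAG was in 13 of 35 (37.1%) against 15%. The core AAGGTCA, the letters that ERR-type nuclear receptors read, was in 5 (14.3%) against 4.61%, and the YY1 core AAGATGG in 4 (11.4%) against 7.54%. A match of letters is a description of the promoter and not a bound site.

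Complex IV had no subunit past the test in either direction, and 1 of its 17 had an unadjusted p under 0.05. That was Cox8a, a small membrane subunit. Its log2 levels were 11.76, 13.01, 12.10, 12.49 and 12.90 in BKS and 13.04, 13.60, 13.18 and 12.96 in db/db. The BKS arrays were spread widely, from 11.76 to 13.01, and BKS 2 lay above db/db 4, so the groups overlapped. Cox8a differed by 0.74 (SE 0.23), the largest difference of the 47, with an adjusted p of 0.0908. It was 1.03 on the low 18S arrays and 0.37 on the high 18S arrays. The probe set of Cox8a with the largest variance, a dim one, went the other way (-0.22).

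Cox5b, which binds zinc on the matrix side, had 14.57, 14.74, 14.62, 14.70 and 14.74 in BKS and 14.70, 14.90, 15.18 and 14.78 in db/db, where db/db 3 stood highest; the difference was 0.22 with an adjusted p of 0.347. The other general subunits were level or lower: Cox5a at -0.26, Cox6c at 0.06, Cox7c at -0.16, and Cox7a2l, a factor of supercomplexes that shares the Cox7a name, at -0.22. Cox7c was dim here, since the probe sets that name it alone had low signal (7.13 for the brighter).

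For the isoform pairs of complex IV no member passed. The probe sets of the general forms lay in the top 10% of genes by mean level, and those of the tissue-restricted forms below the median gene, except that of Cox6a2, at percentile 52.2; levels of different probe sets are not compared further. Cox4i1, the general form of the regulatory subunit 4, had 14.53, 14.75, 14.58, 14.75 and 14.70 in BKS and 14.60, 14.69, 14.64 and 14.59 in db/db, with a difference of -0.03. Cox4i2, known from lung and from cells responding to low oxygen, had 5.94, 5.34, 6.02, 5.19 and 4.70 in BKS and 6.22, 5.73, 5.12 and 4.38 in db/db. That is a difference of -0.08, with a confidence interval from -1.01 to 0.85. The interval is wide because the gene is dim and its arrays scatter.

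The subunit 6 pairs were also read on every array. Cox6a1, the liver form, had 14.86, 14.79, 14.76, 15.01 and 15.00 in BKS and 14.64, 14.78, 14.96 and 14.92 in db/db (difference -0.06). Cox6a2, the heart and muscle form, had 7.86, 7.68, 7.56, 7.66 and 7.49 in BKS and 7.72, 7.78, 7.69 and 7.31 in db/db (-0.03). The groups overlapped in both. Cox6b1, the general form of subunit 6b, had 14.63, 14.80, 14.89, 14.81 and 14.80 in BKS and 14.84, 14.75, 14.75 and 14.76 in db/db (-0.01). Cox6b2, the testis form, had 5.92, 5.62, 6.81, 7.19 and 6.52 in BKS and 6.87, 5.63, 4.76 and 6.29 in db/db (-0.52). Its lowest array was db/db 3 and its interval ran from -1.55 to 0.50.

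Cox7a2, the form of subunit 7a found in liver, had 14.92, 14.92, 15.05, 14.95 and 14.91 in BKS and 14.90, 14.66, 14.97 and 14.92 in db/db (-0.09). Cox7a1, its heart and muscle form, had 6.56, 7.07, 7.09, 7.74 and 7.83 in BKS and 7.05, 6.53, 6.10 and 7.18 in db/db (-0.54, adjusted p 0.496). Here the 2 BKS arrays of high 18S signal were the highest, and the difference was -0.12 on the low 18S arrays and -1.14 on the high 18S arrays. Cox8b, the heart and muscle counterpart of Cox8a, had 5.23, 5.86, 4.89, 5.62 and 5.15 in BKS and 5.96, 6.69, 4.92 and 5.45 in db/db (0.40). Low 18S arrays differed by 1.00, and high 18S arrays by -0.20. Cox7b2 and Cox8c, known from testis, differed by 0.27 and -0.41. Skeletal and cardiac muscle markers, 7 measured, gave 0 calls and 0 with an unadjusted p under 0.05 by limma, with a summed signal of 283 to 670 in BKS and 247 to 438 in db/db; their part in these dim values was not tested.

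In complex V no subunit passed the test, and 2 of 17 had an unadjusted p under 0.05. The F1 head holds 5 of these genes. Atp5a1, its alpha subunit, had 14.34, 14.66, 14.29, 14.10 and 14.40 in BKS and 14.78, 15.08, 14.57 and 14.49 in db/db, with BKS 2 inside the db/db range, and a difference of 0.37 (adjusted p 0.170); its probe set of largest variance gave -0.52. Atp5c1, the gamma subunit that turns inside the head, had 14.30, 14.27, 14.35, 14.47 and 14.46 in BKS and 14.33, 14.46, 14.62 and 14.55 in db/db (0.12). Atp5b, the catalytic beta subunit, and the small subunits Atp5d and Atp5e lay at 0.10, 0.01 and 0.13.

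Of the Fo part and the stalk, the genes of the ring subunit c lend themselves to comparison, since 3 genes encode the same mature protein and differ in the import sequence. Atp5g1 had 12.90, 13.62, 13.30, 13.34 and 13.47 in BKS and 13.77, 13.92, 13.62 and 13.54 in db/db (0.39, adjusted p 0.153). Atp5g2 had 12.61, 13.39, 13.24, 12.93 and 13.02 in BKS and 13.51, 13.62, 13.29 and 12.98 in db/db (0.31, adjusted p 0.370). On both, BKS 1 was the lowest array. Atp5g3 was flat, with 14.72, 14.65, 14.67, 14.78 and 14.78 in BKS and 14.69, 14.72, 14.83 and 14.72 in db/db (0.02, confidence interval from -0.17 to 0.22). The difference between the 3 genes was not tested.

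The other 9 subunits of Fo and the stalk lay from -0.19 (Atp5k, subunit e) to 0.13 (Atp5l, subunit g), and none had an unadjusted p under 0.05. They include the peripheral stalk subunits Atp5pb (-0.14), Atp5h (-0.15), Atp5j (0.00) and Atp5o (-0.03), and the small membrane subunits Atp5j2, Atp5mpl and Atp5md.

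The arrays differed little in the general level of the subunits. The median deviation of the 47 subunits from each gene's mean over all arrays was -0.12, -0.01, -0.01, 0.02 and 0.02 on the BKS arrays. On the db/db arrays it was 0.04, 0.06, 0.05 and -0.00. BKS 1 stood apart and db/db 4 lay below the highest BKS arrays, so the groups overlapped. BKS 1 was the lowest array for 13 of the 47 subunits, and db/db 2 the highest for 11. The median difference of the subunits, 0.06, became 0.02 without BKS 1, 0.03 without BKS 2 and 0.04 without db/db 1.

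**Figure D2:**
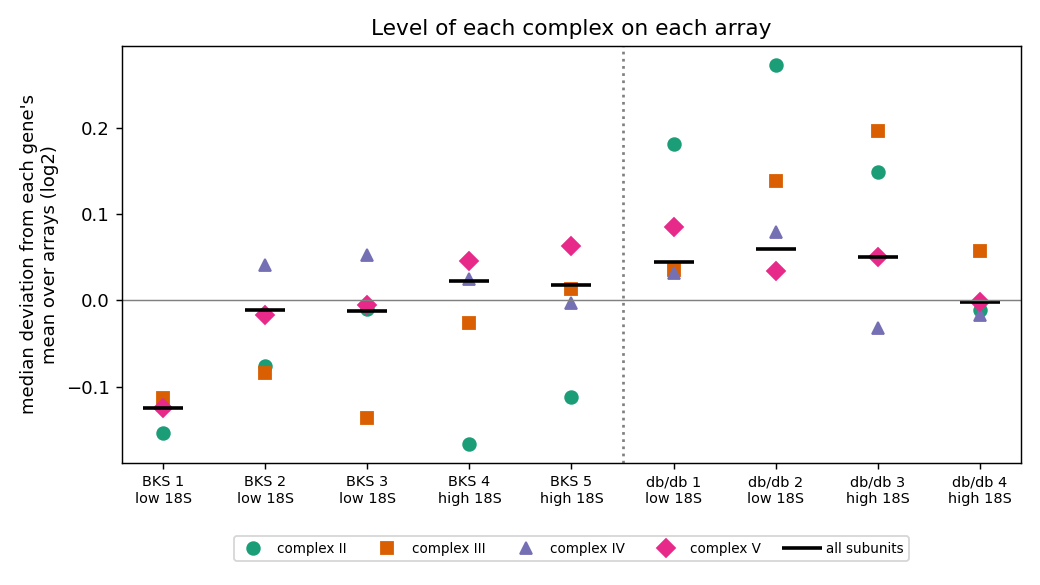
Median deviation (log2) of the subunits of each complex from each gene's mean over the arrays, for each of the 9 arrays, beside that of all 47 subunits. BKS 1 lies lowest for the 47 subunits at -0.12, and db/db 2 highest at 0.06.

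**Figure D3:**
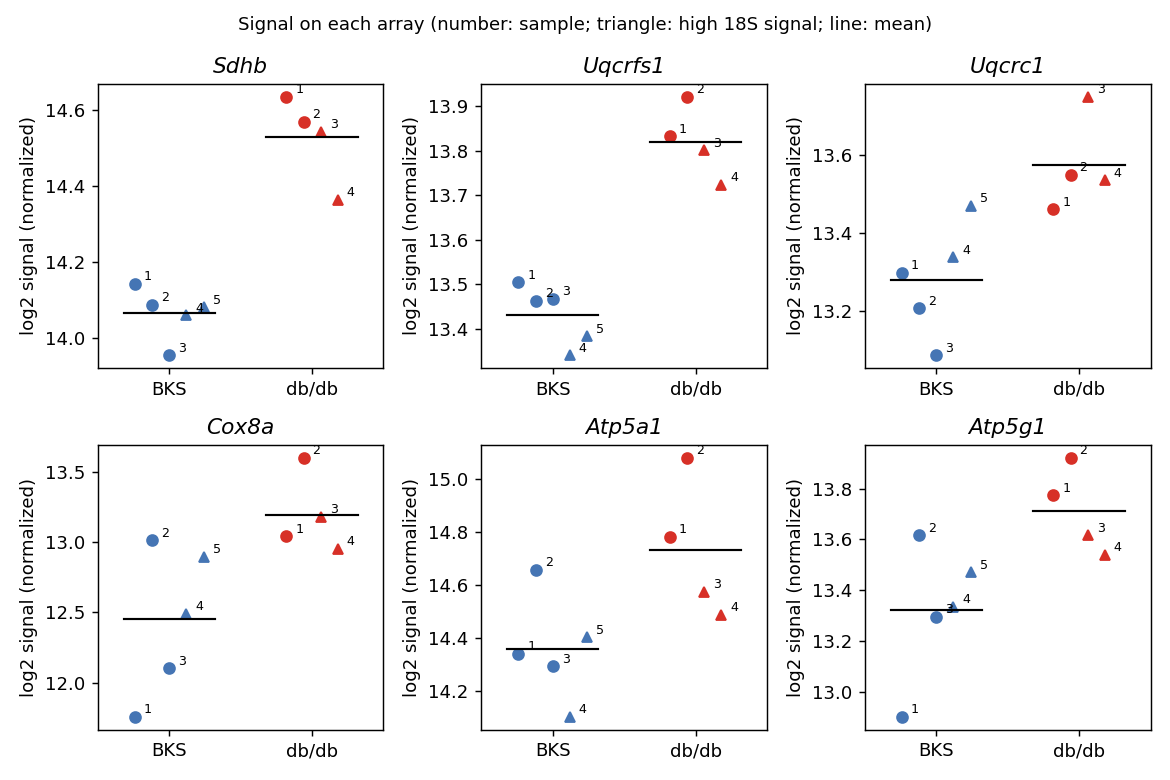
Log2(signal + 16) levels on each array for subunits that the results turn on, BKS and db/db side by side with group means. The groups separate for Sdhb and Uqcrfs1 and overlap for Cox8a.

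Most of these genes have several probe sets on the array, and these did not always move alike. Over the 45037 probe sets that are no controls 2.78% were called, and of the 92 probe sets of the subunits 4 rose and 1 fell. The rises were the probe set of Sdhb, a second probe set of Cox8a (1.08, adjusted p 0.0338), of Atp5d (0.55, 0.0464) and of Atp5h (0.46, 0.0239). The fall was a probe set of Cox7a2l (-0.55, 0.0280). Its other probe sets were lower too and did not pass: -0.43 (adjusted p 0.122, groups without overlap) and -0.22 (0.524, groups overlapping). The single probe set of Uqcrfs1 had an adjusted p of 0.0569 in this larger fit. Among 29 subunits with several probe sets, 17 held both higher and lower ones.

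The direction differed by the kind of probe set. On Affymetrix arrays the suffixes _a, _s and _x mark probe sets that match several transcripts or related sequences, and those without a suffix are meant for 1 transcript. Among the 64 probe sets of the subunits in the top 10% of the array by mean level, 23 of the 25 without a suffix were higher in db/db, with a median of 0.13, and 21 of the 39 with a suffix, with a median of 0.01. This comparison was chosen after the values were seen. In 11 of 13 genes with both kinds, the probe set without a suffix had the higher difference, and in 7 of 13 the signs were opposite: 0.46 against -0.15 for Atp5h, 0.33 against -0.14 for Atp5pb, 0.14 against -0.26 for Cox5a and 0.31 against -0.01 for Cox6b1. The exceptions were Atp5k (-0.46 against -0.19) and Uqcrb (0.01 against 0.05). For Atp5h the rise was thus seen on 1 of its probe sets and not on its brighter one.

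**Figure D4:**
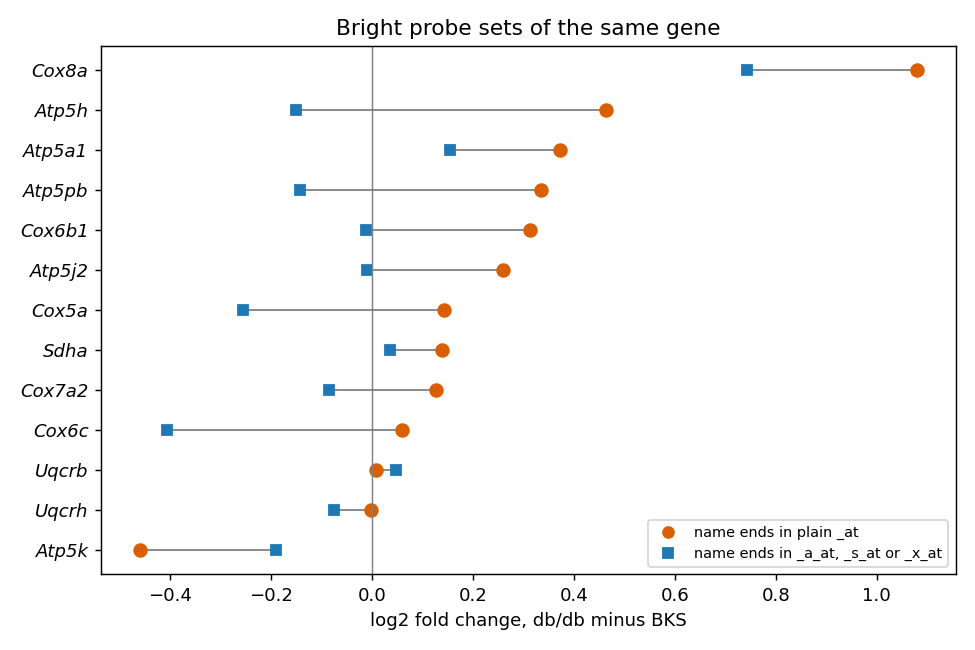
Log2 difference of db/db and BKS for the 13 subunits with a bright probe set without a suffix and one with a suffix. The value without the suffix lies above in 11 of 13, with Cox8a highest at 1.08 and Atp5k lowest at -0.46.

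Other genes of the chain were counted in the same fit. Of 35 genes taken as complex I subunits by symbol alone 1 rose and 0 fell, with a median of 0.09 and 25 higher. The called gene was Ndufb7 (0.51, adjusted p 0.0436). Its call was lost without BKS 1, BKS 3, BKS 5 or any db/db array (adjusted p up to 0.120). With the 18S set as a block 4 of the 35 rose, Ndufa4 (adjusted p 0.0375), Ndufa10 (0.0148) and Ndufc1 (0.0150) beside Ndufb7. The 47 genes counted for complexes II to V kept a count of 2, and the difference between the lists was not tested. Ndufa4 was counted here by its symbol and not among the complex IV genes, whichever complex its protein serves. Of 38 assembly factors of complexes II to V 35 were measured, and 3 rose and 0 fell, with a median of 0.05; in the block fit 4 rose, Coa7 being added (0.62, adjusted p 0.0219). Coa6, a copper protein of complex IV assembly, rose from 10.80 ± 0.21 (SD, n = 5) to 11.49 ± 0.15 (SD, n = 4), by 0.69 (adjusted p 0.00765). Tmem70 and Fmc1 belong to the assembly of complex V and rose by 0.67 (adjusted p 0.00562) and 0.98 (adjusted p 0.0222). The call of Fmc1 was lost without BKS 3, db/db 1, db/db 2 or db/db 3 (adjusted p up to 0.0718). Of the 4 factors of complex V both called genes and the 2 others were higher, with a median of 0.51, beside 0.06 for the subunits of complex V; that difference was not tested. For complexes II and III no assembly factor passed, with 1 of 4 and 1 of 6 at an unadjusted p under 0.05; the smallest p were those of Sdhaf4 (0.27, adjusted p 0.254) and Uqcc2 (0.25, adjusted p 0.239).

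Among cytochrome c and the carriers that supply ADP and phosphate to complex V, 1 of 4 genes rose. That was Slc25a5, an ADP/ATP carrier, at 0.46 (adjusted p 0.0158). Its call was lost without db/db 3 (adjusted p 0.0585) and with median centring (0.551), and its probe set of largest variance gave -0.059. Of 13 regulators of respiratory genes none passed, with a median of -0.15 and 2 with an unadjusted p under 0.05: Pprc1, a coactivator, was at -0.69 (adjusted p 0.0569) and Ppargc1a, which encodes PGC-1alpha, at 0.71 (adjusted p 0.0907). With the 18S set as a block both passed, Pprc1 lower (-0.67, adjusted p 0.0378) and Ppargc1a higher (0.74, adjusted p 0.0377). Markers of other cells moved in part with genotype: Fabp4, found in adipocytes and macrophages, rose by 1.36 (adjusted p 0.0249), 1 of 5 adipocyte markers, and Alas2, of red cell precursors, fell 2.30-fold (adjusted p 0.0114), 1 of 3 erythroid markers. No marker of macrophages, T and B cells, endothelium, stellate cells or bile duct passed, with 2 of 7, 0 of 4, 1 of 5, 3 of 6 and 2 of 4 at an unadjusted p under 0.05. The block fit changed this: the stellate cell and pericyte markers Rgs5 (1.41, adjusted p 0.00326) and Lrat (0.98, 0.0398) and the endothelial marker Pecam1 (1.64, 0.0470) were higher, and the bile duct marker Sox9 (-1.59, 0.0268) and the macrophage marker Adgre1 (-0.62, 0.0364) lower, in db/db. The median differences without the block were 0.56 for stellate, -0.77 for bile duct, -0.46 for macrophage and -0.04 for endothelial markers. Of the 5 endothelial markers 2 were higher and 3 lower in db/db, so Pecam1 does not stand for its list. The summed stellate signal was 1255 to 2749 in BKS and 2982 to 4151 in db/db. The summed adipocyte signal was 260 to 798 in BKS and 714 to 864 in db/db, and the erythroid signal 2317 to 3949 and 913 to 2209. In both sums the called gene, Fabp4 or Alas2, was the brightest marker, so the sums largely repeat it. The other adipocyte markers differed by 0.47 (Cidec), 0.03 (Adipoq), -0.06 (Ucp1) and -0.54 (Lep). The other erythroid markers differed by 0.07 (Hba-a1) and -0.015 (Slc4a1), and none of these passed. The part of all these markers' cells in the differences of the subunits was not tested.

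**Figure D5:**
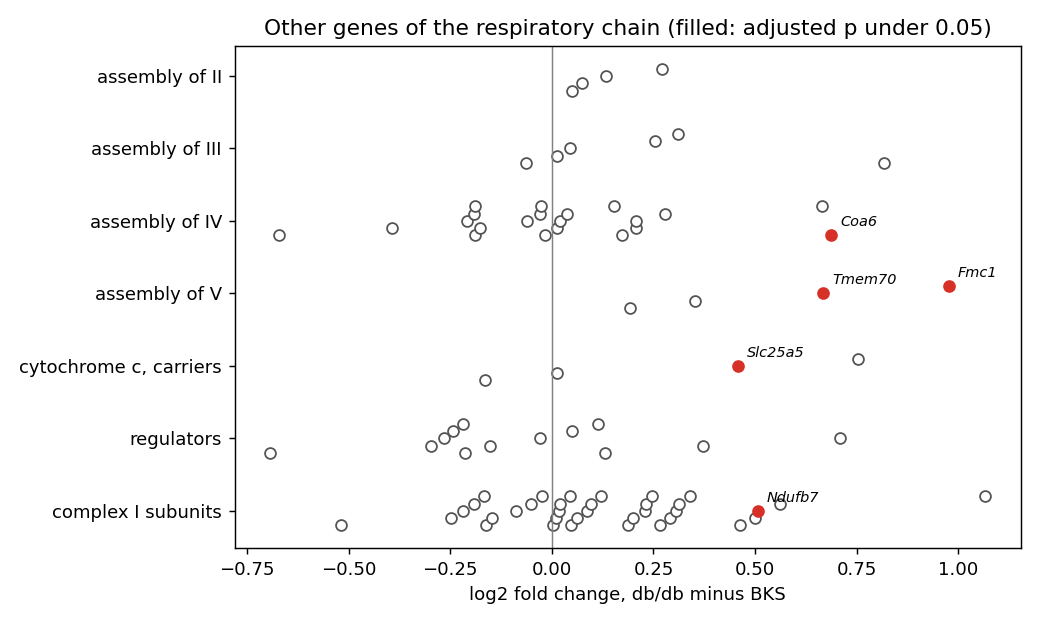
Log2 differences of the genes in each comparison list, 1 point per gene, with vertical offsets only to separate points. The medians, which are not drawn, were 0.09 for the genes with complex I symbols and 0.05 for the assembly factors. The median of the 47 subunits of complexes II to V, also not drawn, was 0.06.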

How the data were processed

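Liver RNA, 8 µg for each sample, was made into biotin-labelled cRNA for Affymetrix arrays, per the labels' protocols. The authors deposited linear intensity values, 1 for each probe set on each array. The software with its background correction is not given in the sources used here. Each array had been scaled to a trimmed mean near 500 (500.003 to 500.005), and no detection calls were given.

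Values were transformed as log2(value + 16) and quantile normalized, because array medians spanned 0.60 on the log2 scale, above a limit of 0.25. Of 45101 probe sets, 34945 had 1 gene symbol, and each gene took the probe set of highest mean, giving 18193 genes. All were fitted with limma 3.58.1 in R 4.3.3 (lmFit, eBayes with trend, two-sided) and Benjamini-Hochberg adjustment over all genes; "rose" and "fell" mean past 0.05. The steps were tested on simulated data. The number of arrays (5 and 4) limits the precision. Correlations between arrays ran from 0.919 to 0.967.

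The 47 members, the gene lists and the naming rule were chosen with earlier results of these data known. The rule named, with all array values, members past the test, the 2 of smallest p and the largest change in each complex (F1 and Fo apart), members without overlap and isoform pairs. From each comparison list it named the members past the test, or else the 1 of smallest p. Promoter motifs were counted without a test. A planned comparison of isoform protein sequences was not run. The 18S split was found in the data. Alternatives changed the scaling, pseudocount, dim-gene filter, probe set rule, variance model, block and arrays used, 1 at a time.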

Additional observations from a re-analysis of the deposited data

Results flagged for a closer look

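In 58 groups of 4 or 5 arrays, the gap of the highest or lowest array to its neighbour was divided by the range of the group. Chance flags about 1 in 20 such groups, and 3 stood out. For Cox7a2, BKS 3 was highest at 15.05 against 14.95 for the next array (0.734 of the range). For Pprc1, db/db 4 was lowest at 8.32 against 8.61 (0.869). The median deviation of the subunits was lowest on BKS 1, at -0.12 against -0.01 (0.76); without that array the median difference was 0.02.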

How the results depend on the processing

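The 2 calls became 0 with median centring, with no normalization, without the trend and in either 18S set alone (0 in both). They became 4 with the probe set of largest variance, 3 higher (Atp5d, Atp5h and Sdhb) and 1 lower (Cox7a2l). Without _s and _x probe sets there were 5, 3 higher (Cox8a, Sdhb and Uqcrfs1) and 2 lower (Atp5k and Cox7a2l). The brightest plain probe set, an alternative chosen after seeing the data, also gave 5. Of these 4 were higher (Atp5h, Cox8a, Sdhb and Uqcrfs1) and 1 lower (Atp5k). With 1 array left out the calls among the subunits ran from 1 to 3. The calls over all genes, 999, became 535 with median centring, 630 with largest variance, 466 without the trend, 436 and 465 in the low and high 18S sets, and 592 (without db/db 3) to 929 with 1 array left out. The median of the subunits was -0.0055 on the high 18S arrays. With 1 array left out, the call of Fmc1 was lost in 4 of 9 fits, Ndufb7 in 7, Uqcrfs1 in 6 and Slc25a5 in 1.

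Over 25 alternatives, 14 of 28 named genes turned sign somewhere. With no normalization Atp5g3 stood at -0.061. With mean probe sets Atp5c1 stood at -0.057, Cox6a1 at 0.051, Cox6a2 at 0.061, Cox6b1 at 0.15 and Cox7a2 at 0.020. With largest variance Atp5c1 stood at -0.23, Cox6a1 at 0.16, Cox6a2 at 0.15, Cox6b1 at 0.31, Cox7a2 at 0.13, Cox8a at -0.22, Atp5a1 at -0.52, Slc25a5 at -0.059 and Uqcc2 at -0.23. The plain probe sets and those without _s and _x gave -0.23 for Atp5c1, and the plain ones 0.31 for Cox6b1 and 0.13 for Cox7a2. The 18S split as a block turned Cox4i2 to 0.023 and moved Pprc1 past the threshold (adjusted p 0.0378). The low 18S arrays gave 0.050 for Cox6a2, 0.0125 for Cox6b1, 0.21 for Cox4i2, 0.027 for Cox4i1 and 0.14 for Cox6b2. The high 18S arrays gave -0.0055 for Atp5g3, 0.022 for Cox7a2 and -0.19 for Cox8b. With 1 array left out, Cox4i2 ran from -0.37 to 0.25, Cox6a2 from -0.076 to 0.078, Cox6b1 from -0.049 to 0.013, Cox6a1 from -0.10 to 0.0030 and Atp5g3 from -0.0081 to 0.038. Except for changes of probe set, the cause was not tested. Cox4i2, Cox6b2, Cox7a1 and Cox8b have no value with dim genes left out.

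The replicate block gave 2 calls among the subunits (Cox8a and Sdhb; Uqcrfs1 had an adjusted p of 0.0566), 1146 over all genes and a median of 0.0431. Deviations of equal numbers correlated at 0.03, 0.17, -0.07 and 0.13, and 4 of 8 arrays correlated best with their own number, so numbers were not taken as pairs.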

Other observations

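Probe sets of different kinds also differed over the whole array. Among bright probe sets of all genes, the 2493 without a suffix had a median difference of 0.03, with 53.9% higher in db/db. The 2011 with a suffix had a median of -0.06, with 43.6% higher. The gap in the respiratory subunits (0.13 against 0.01) thus has a counterpart in the background; the kinds were compared after the values were seen, and what the gap comes from was not tested.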
